A study of Mus musculus with 6 samples.

Results

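Expression of 8 genes that mark pro-inflammatory (M1) activation of macrophages was followed in bone marrow-derived macrophages (BMDMs) with and without zoledronic acid (ZA). They are the rows of the deposited expression table whose symbol is Nos2, Tnf, Il6, Il12b, Cd80, Cd86, Cd40 or Fcgr3, and all 8 were found among the 35393 rows that could be read. Of the 8, 5 passed a filter on low values (a mean of at least 1 FPKM over the 6 libraries) and were tested, and 3 (Nos2, Il6 and Il12b) lay below it. In the deposited table the separators between the values are missing in nearly all rows, so each row was cut into its 6 values before use.

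BMDMs are macrophages grown in culture from bone marrow. Here the marrow came from femurs of C57BL/6 mice, and the cells were kept for 7 days with M-CSF at 10 ng/ml, the growth factor that drives monocyte precursors to become macrophages. The 3 Ctrl libraries received no ZA and the 3 ZA libraries were taken 12 h after ZA, a bisphosphonate used against bone resorption. The ZA concentration of the sequenced cultures is not named in the sources used here, no LPS or cytokine other than M-CSF is named for either group, and the labels do not say whether libraries came from separate cultures or animals, so p-values measure the spread between these libraries, which may be technical. FPKM counts the fragments of a gene per unit of transcript length and per unit of sequencing depth.

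Macrophages exposed to microbial products or interferon-γ turn on a set of genes that mediates killing and alarm, and this state is called M1. Its cytokines include tumour necrosis factor (Tnf), interleukin 6 (Il6) and Il12b, the subunit that IL-12 and IL-23 share. Its effector enzyme is the inducible nitric oxide synthase (Nos2), which makes nitric oxide from arginine. Cd80 and Cd86 are the B7 ligands that T cells read through CD28 and CTLA4, Cd40 is the receptor through which T cells signal back, and Fcgr3 (CD16) is a receptor for immunoglobulin G that works with the common γ chain Fcer1g. NF-kB, a transcription factor held in the cytoplasm by inhibitory proteins, acts on several of these genes.

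The stretches of 200 bases just before the transcription start are shown for 4 members, because these genes lay at very different levels in the same cells while several carry the same kind of NF-kB letters. They were taken from RefSeq on build GRCm38.p6, which held entries for 5 of the 8 members, with Cd80 as the other. Tnf is the minus strand of chr17:35202008-35202207, Il6 the plus strand of chr5:30012914-30013113, Il12b the plus strand of chr11:44399863-44400062 and Fcgr3 the minus strand of chr1:171059395-171059594. Capitals mark GGG followed by any 5 bases and CC (the NF-kB letters, on either strand, overlapping matches joined) and TATAAA (either strand).
Tnf: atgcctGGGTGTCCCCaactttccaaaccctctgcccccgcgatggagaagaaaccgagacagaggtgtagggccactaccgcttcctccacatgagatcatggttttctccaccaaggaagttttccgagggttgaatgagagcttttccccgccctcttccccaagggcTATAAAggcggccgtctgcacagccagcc
Il6: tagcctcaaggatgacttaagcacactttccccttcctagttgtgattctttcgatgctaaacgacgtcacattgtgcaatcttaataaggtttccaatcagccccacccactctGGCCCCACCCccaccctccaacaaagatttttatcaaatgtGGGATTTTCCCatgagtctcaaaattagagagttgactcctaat
Il12b: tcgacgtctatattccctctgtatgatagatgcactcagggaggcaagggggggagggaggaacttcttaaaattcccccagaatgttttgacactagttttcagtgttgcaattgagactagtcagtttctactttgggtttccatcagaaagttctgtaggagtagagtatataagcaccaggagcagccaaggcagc
Fcgr3: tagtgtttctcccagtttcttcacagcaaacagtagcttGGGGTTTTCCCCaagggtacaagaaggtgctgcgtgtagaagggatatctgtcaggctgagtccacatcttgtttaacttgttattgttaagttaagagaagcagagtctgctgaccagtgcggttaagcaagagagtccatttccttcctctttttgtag
In the 250 bases before the start, the NF-kB letters were found in 4 of the 5 members with an entry, and in 45.8% of 32851 windows of that length in the whole table. TATAAA was found in Tnf only among these 5, with 12.4% of all windows holding it. Il12b held neither exact string of letters. Stretches that depart from these letters were not sought, so a gene without a match may still hold an NF-kB site or a TATA element. The match of Tnf began 194 bases before the start, those of Il6 at 85, 44 and 43, those of Cd80 at 210 and 52, and the overlapping ones of Fcgr3 at 161, 160 and 159. A match of letters is a description of the sequence and was not set against any binding data.

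The levels of the 8 genes in the Ctrl cells spanned from Fcgr3 at 254 ± 1.96 FPKM to Il6 at 0.00701 ± 0.0121 FPKM (mean ± SD, n = 3 here and below). Between them lay Cd86 at 6.32 ± 0.455, Tnf at 5.01 ± 0.391, Cd40 at 4.99 ± 0.383, Cd80 at 2.24 ± 0.231, Nos2 at 0.104 ± 0.0143 and Il12b at 0.0574 ± 0.0344 FPKM. Tnf and Cd40, neighbours in this order, overlapped in their Ctrl libraries, as did Nos2 and Il12b. In the ZA cells the order of means was the same except that Cd40 stood above Tnf, and the libraries of Cd86, Cd40 and Tnf overlapped each other. Fcgr3 ranked at 198 among all genes, and its mean over the 6 libraries was above that of 99.0% of the genes with a value above 0. Il6, at the other end, was above 19.1% of them.

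**Figure D1:**
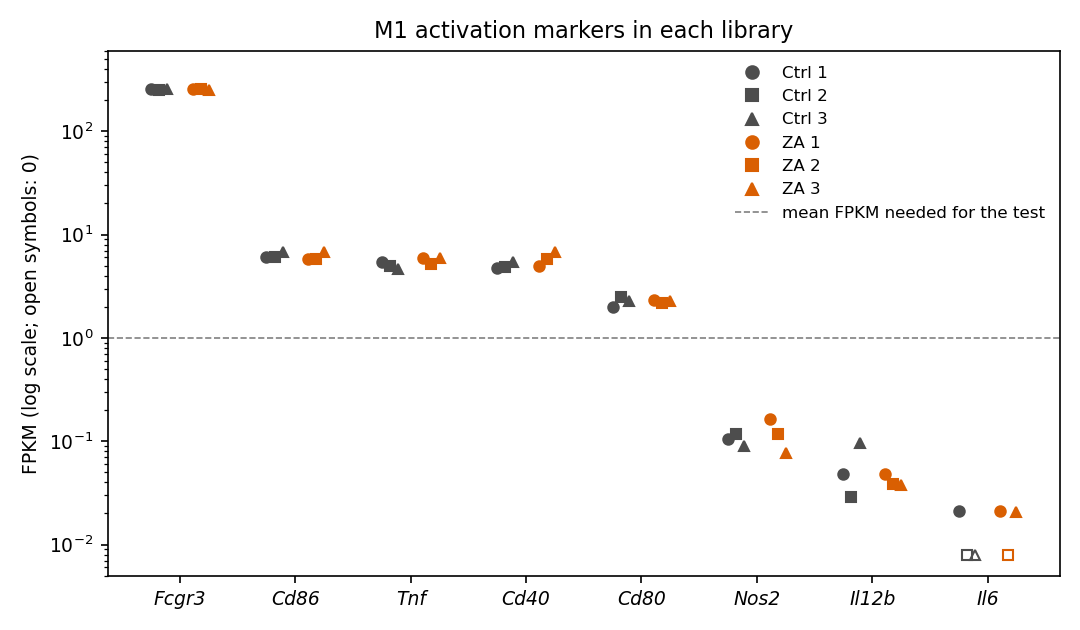
FPKM of the 8 genes in each of the 3 Ctrl (grey) and 3 ZA (orange) libraries on a log axis, with open symbols at the bottom for a value of 0 and a dashed line at 1 FPKM. Fcgr3 lies near 254 FPKM, Cd86, Tnf, Cd40 and Cd80 lie between 2.0 and 6.84 FPKM, and Nos2, Il12b and Il6 lie below 0.2 FPKM in every library.

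Among the 5 tested genes, 0 reached an adjusted p under 0.05 between ZA and Ctrl by limma and 1 (Tnf) had an unadjusted p under 0.05. Without the filter, where all 8 were fitted, 0 were called by limma, and in 0 of the 8 did the groups lie apart without overlap. By voom, which weights log fragments by their precision, 0 were called with or without the filter. The same threshold was met by 36 (0.367%) of all 9800 tested genes, and this number lay between 0 and 25 when 1 library was left out. The mean was higher in ZA for 5 of the 8 (Nos2, Tnf, Il6, Cd80 and Cd40), of which 3 were tested, while 56.9% of all tested genes had a higher mean. Unadjusted p-values under 0.05 were found for 7.50% of all tested genes in the higher and 4.85% in the lower direction. The groups did not overlap in 18.1% of all tested genes, and in 11.4% the ZA libraries were all above Ctrl.

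Tnf encodes the cytokine that reaches other cells after cleavage from the membrane by Adam17. It was at 5.42, 4.98 and 4.63 FPKM in Ctrl 1, 2 and 3 and at 5.90, 5.21 and 5.97 FPKM in ZA 1, 2 and 3. ZA 1 and ZA 3 were the highest, but ZA 2 lay below Ctrl 1, so the groups overlapped. The means were 5.01 ± 0.391 and 5.69 ± 0.421 FPKM, from 320 to 416 fragments per library. On the log2(FPKM + 1) scale the difference was 0.16 ± 0.06 (SE), with a 95% interval of 0.01 to 0.30, an unadjusted p of 0.0382 and an adjusted p of 0.370 by limma. Tnf did not pass the test, and the interval leaves folds of FPKM + 1 from 1.01 to 1.23.

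Il6 was nearly absent from the libraries. A single fragment was counted in each of Ctrl 1, ZA 1 and ZA 3, and 0 in Ctrl 2, Ctrl 3 and ZA 2, which gives 0.0210, 0.0213 and 0.0208 FPKM where a fragment was seen. All 6 values lie under the level of 3 fragments, a count floor set here, which for Il6 is 0.0631 FPKM at the mean library total. No fold is given. Il6 stayed at 0 or 1 fragment per library in both groups, and a difference within this low level was not detectable at this depth. The exact permutation test (two-sided) gave p = 0.7, where the smallest p that 3 against 3 allows is 0.1.

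Il12b was at 5, 3 and 10 fragments in Ctrl and at 5, 4 and 4 fragments in ZA, or 0.0479, 0.0288 and 0.0956 against 0.0484, 0.0384 and 0.0379 FPKM. Ctrl 3 held the highest value and Ctrl 2 the lowest, with all ZA libraries between them. The summed fragments were 18 and 13, a ratio of 0.72 with an interval of 0.33 to 1.56 that covers counting error only. With the exact permutation test p was 0.7, and in the fit without a filter on low values the adjusted p by limma was 0.826.

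Nos2, the enzyme whose product is the classical readout of the M1 state in mouse cells, gave 19, 21 and 16 fragments in Ctrl and 29, 21 and 14 fragments in ZA. In FPKM these were 0.106, 0.118 and 0.0892 against 0.164, 0.118 and 0.0773. The highest and the lowest of the 6 values were both ZA libraries (ZA 1 and ZA 3), so the ZA group covered the whole range of Ctrl. The summed fragments were 56 and 64, with a ratio of 1.14 and a counting interval of 0.79 to 1.67. By the exact permutation test p was 0.8, and the adjusted p of the limma fit without a filter was 0.871.

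**Figure D2:**
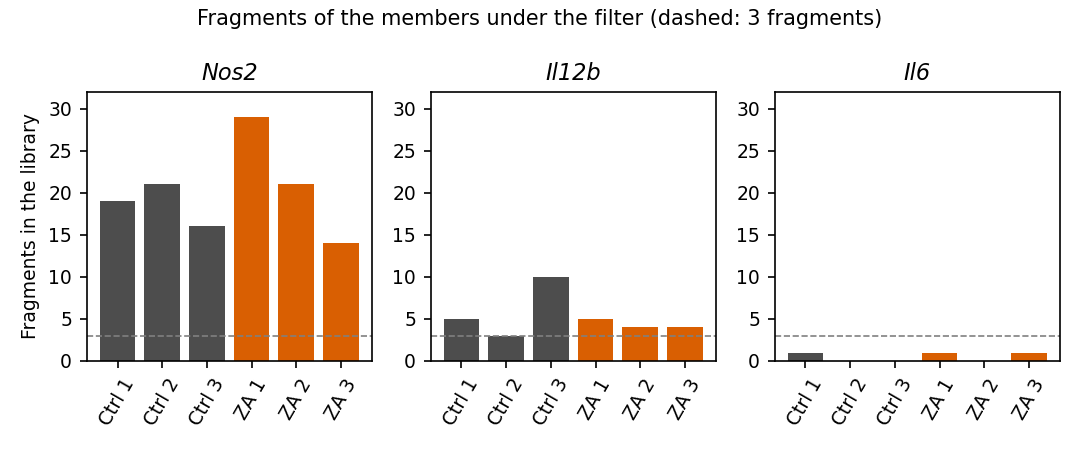
Fragments of Nos2, Il12b and Il6 in each library, on the same axis from 0, with Ctrl in grey, ZA in orange and a dashed line at 3 fragments. Nos2 lies between 14 and 29 fragments, Il12b between 3 and 10, and Il6 at 0 or 1.

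Cd80, the B7 ligand with the higher affinity for CTLA4, was at 2.0, 2.46 and 2.25 FPKM in Ctrl and at 2.34, 2.19 and 2.25 FPKM in ZA. The ZA values lay inside the range of Ctrl. The difference on the log2(FPKM + 1) scale was 0.01 ± 0.06 (SE), with a 95% interval of -0.13 to 0.15 and an adjusted p of 0.954 by limma. Folds of FPKM + 1 outside 0.92 to 1.11 lie outside this interval.

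Cd86 is the B7 ligand that macrophages carry before activation. It was at 6.02, 6.09 and 6.84 FPKM in Ctrl and at 5.74, 5.84 and 6.73 FPKM in ZA. Ctrl 3 and ZA 3 were the highest of their groups, and the remaining 4 libraries lay between 5.74 and 6.09 FPKM. The difference was -0.04 ± 0.07 (SE) on the log2(FPKM + 1) scale, with a 95% interval of -0.19 to 0.11 and an adjusted p of 0.824 by limma.

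Cd40 had the largest difference on the log2(FPKM + 1) scale among the 5 tested members with all libraries, while that of Tnf was larger without Ctrl 1 (0.20 against 0.16), without ZA 2 (0.21 against 0.19) and without ZA 3 (0.13 against 0.09). Cd40 was at 4.71, 4.83 and 5.43 FPKM in Ctrl and at 4.91, 5.86 and 6.84 FPKM in ZA. ZA 2 and ZA 3 were above all Ctrl libraries, while ZA 1 lay inside the range of Ctrl. The spread was 0.383 FPKM in Ctrl and 0.967 FPKM in ZA (SD). The difference was 0.19 ± 0.10 (SE) on the log2(FPKM + 1) scale, with a 95% interval of -0.03 to 0.41, an unadjusted p of 0.0830 and an adjusted p of 0.471 by limma. It was 0.29 without ZA 1.

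Fcgr3 was at 257, 253 and 254 FPKM in Ctrl and at 256, 254 and 248 FPKM in ZA, from 32340 to 33099 fragments per library. The lowest value was ZA 3 and the highest Ctrl 1, and their distance was small beside the level. The difference was -0.01 ± 0.02 (SE) on the log2(FPKM + 1) scale, with a 95% interval of -0.06 to 0.04 and an adjusted p of 0.885 by limma. Folds of FPKM + 1 outside 0.96 to 1.03 lie outside this interval, the narrowest of the 5. Fcgr3 has close relatives in the genome, and 0 of the 1733 stretches of 150 bases (the read length) in its GENCODE M21 transcripts occur in a transcript of another gene, nor do those of the other 7 members. Only exact matches were sought. The FPKM values of Fcgr3 imply a counted length of at least 3096 bases, against 1736 exon bases in GENCODE M21, and for Il12b 2505 against 1967. Part of the counted sequence was therefore not examined, and reads shared with relatives were not tested.

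**Figure D3:**
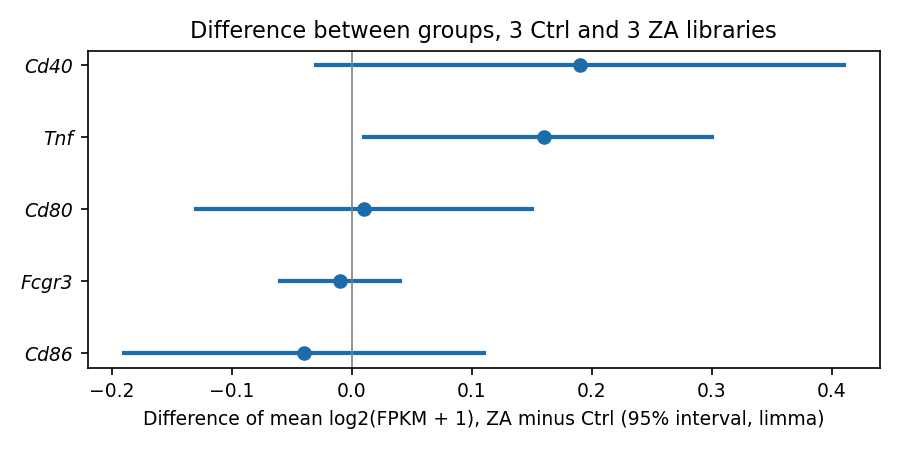
Difference of mean log2(FPKM + 1) between 3 ZA and 3 Ctrl libraries for the 5 tested genes, with 95% intervals from limma. Tnf is the only one whose interval lies above 0 (0.01 to 0.30), with an adjusted p of 0.370, and Fcgr3 has the narrowest interval (-0.06 to 0.04).

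Ratios between members within a library do not depend on the library's total. Cd40 relative to Cd86 amounted to 0.782, 0.793 and 0.793 in Ctrl and 0.855, 1.0 and 1.02 in ZA. All ZA libraries were above all Ctrl libraries, with means of 0.789 ± 0.00596 and 0.958 ± 0.0896. The exact permutation test gave p = 0.1, the smallest that 3 against 3 allows, and 0.667 after Benjamini-Hochberg adjustment over the 8 ratios computed. In the other 7 ratios the groups overlapped. Cd86 to Cd80 had a mean of 2.84 ± 0.316 in the Ctrl and 2.70 ± 0.270 in the ZA libraries (exact permutation p = 0.5). Fcgr3 to Fcgr2b, the activating and the inhibitory low-affinity receptor of immunoglobulin G, averaged 4.41 ± 0.0957 without and 4.41 ± 0.0897 with ZA.

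Over the 6 libraries the 5 tested members did not follow each other as a group. Pearson's r of log2(FPKM + 1) between pairs ran from -0.84 (Cd40 and Fcgr3) to 0.54 (Cd86 and Cd40), given as a description over 6 libraries that share their groups. The gene with the profile most like that of Cd40 was Ifi44, an interferon-stimulated gene, with r = 0.999. Ifi44 was at 2.47, 2.62 and 3.46 FPKM in Ctrl and at 2.65, 4.01 and 5.62 FPKM in ZA, so that both genes were highest in ZA 3, then ZA 2, then Ctrl 3. For the other members the closest genes were Eid2 for Tnf (r = 0.993), Cad for Cd80 (r = 0.994), Rasgrp3 for Cd86 (r = 0.992) and Dubr for Fcgr3 (r = 0.984). With 9800 genes to choose from, the closest gene of any tested gene had a median r of 0.991.

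**Figure D4:**
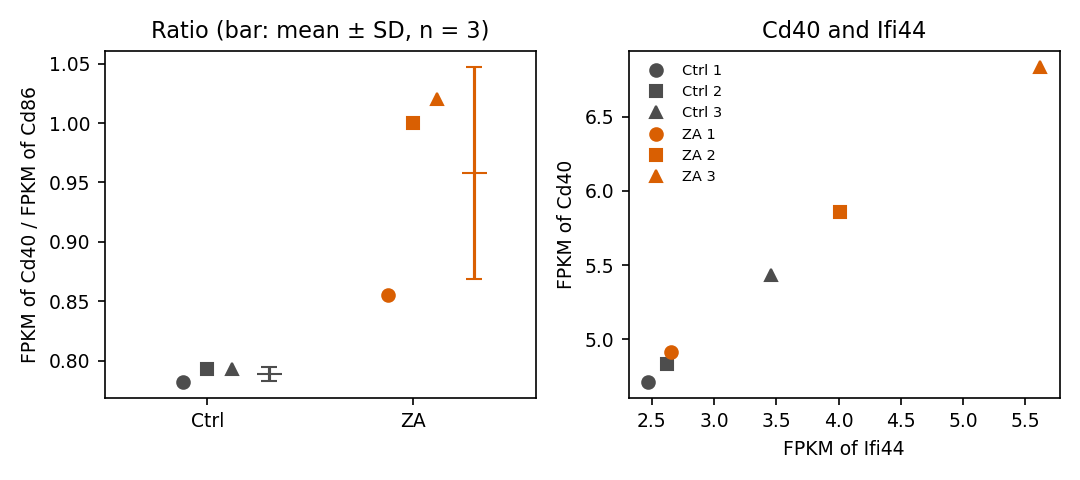
Left, FPKM of Cd40 divided by FPKM of Cd86 in each library with the mean and SD of each group (the axis does not start at 0): Ctrl lies between 0.782 and 0.793 and ZA between 0.855 and 1.02. Right, FPKM of Cd40 against FPKM of Ifi44 in the 6 libraries, with ZA 3 highest and ZA 1 among the Ctrl libraries.

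The genes that work with the members were read in 8 lists, in each of which 0 genes had an adjusted p under 0.05 by limma. For each list the shares to read beside its counts are those over all tested genes. Of these 56.9% had a higher mean, and 7.50% and 4.85% an unadjusted p under 0.05 by limma in the higher and lower direction. By voom on the fragments, Birc3, Saa3 and Nfkbie were called among the genes named here. In the list of nitric oxide synthesis, which holds the arginine transporters, the enzymes that recycle citrulline and those that make the cofactor tetrahydrobiopterin, 11 of 16 genes were tested, 4 had a higher and 7 a lower mean in ZA, 1 of the latter (Calm2) with an unadjusted p under 0.05, and the median difference was -0.026 on the log2(FPKM + 1) scale against 0.010 over all tested genes. Calm2, a calmodulin gene, differed by -0.06 (adjusted p 0.353), the arginine transporter Slc7a2 by -0.09 (0.582) and argininosuccinate lyase Asl by 0.06 (0.479). Gch1, the first enzyme of tetrahydrobiopterin synthesis, was at 7.66 ± 0.553 and 7.50 ± 0.358 FPKM, and Ass1, which recycles citrulline, at 2.06 ± 0.278 and 2.15 ± 0.456 FPKM. Arg1, the arginase that competes for arginine, gave a single fragment in each group.

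The TNF circuit had 14 of 16 genes tested, with 8 higher in mean and 6 lower, 2 of the former and 1 of the latter with an unadjusted p under 0.05. Birc3, a ubiquitin ligase of the TNF receptor complex and a known NF-kB target, was at 13.3, 13.1 and 13.0 FPKM in Ctrl and at 15.1, 14.4 and 14.7 FPKM in ZA. Its groups did not overlap, and its difference of 0.15 ± 0.03 (SE) had an adjusted p of 0.0938 by limma and of 0.0349 by voom. Adam17, the protease that sheds TNF, differed by 0.09 (adjusted p 0.203) and the adaptor Fadd by -0.11 (0.385). The receptors Tnfrsf1a (81.6 ± 1.77 and 81.4 ± 1.09 FPKM) and Tnfrsf1b (175 ± 5.40 and 178 ± 3.48 FPKM) overlapped between the groups.

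Of the IL-6 and IL-12 circuit 9 of 14 genes were tested, 2 had an unadjusted p under 0.05 in the higher direction, and 7 had a higher mean, or 5 after centring on the median or quantile normalization. Ebi3, a subunit of IL-27, was at 43.8, 44.3 and 43.6 FPKM in Ctrl and at 46.1, 50.2 and 50.4 FPKM in ZA, with a difference of 0.15 and an adjusted p of 0.149. Il6ra, the receptor of IL-6, differed by 0.08 (adjusted p 0.317), and Tyk2, a kinase of the IL-12 receptor, by 0.08 (0.453). The signal-transducing receptor Il6st was at 26.0 ± 0.421 and 25.2 ± 1.07 FPKM. Il12a, the partner of Il12b in IL-12, had 35 fragments in Ctrl and 44 in ZA, and Il23a, its partner in IL-23, had 0 in all 6 libraries.

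In the list of B7 and CD40 costimulation 9 of 16 genes were tested, 7 with a higher mean and 3 of these with an unadjusted p under 0.05. Over all tested genes these shares were 56.9% and 7.50%. Icosl, the B7-family ligand of ICOS, was at 3.13, 3.30 and 3.23 FPKM in Ctrl and at 3.76, 4.05 and 4.39 FPKM in ZA. Every ZA library was above every Ctrl library, and the difference of 0.26 ± 0.05 (SE) had an unadjusted p of 0.00106 and an adjusted p of 0.0966. Cd274 (PD-L1) differed by 0.08 (adjusted p 0.353), and Ciita, the activator of MHC class II genes, by 0.16 (0.397). Traf6, an adaptor of CD40, was at 5.90 ± 0.340 and 5.98 ± 0.112 FPKM, and Pdcd1lg2 (PD-L2) was below the filter with 72 and 60 summed fragments.

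Around Fcgr3, all 12 genes of the Fc γ receptor list were tested, with 7 higher in mean (6 under either other scaling) and 3 with an unadjusted p under 0.05. They include the phosphatase Ptpn6 and the phospholipase Plcg2, with differences of 0.11 (adjusted p 0.243) and 0.10 (0.304). Among the receptors, Fcgr1 stood at 102 ± 5.14 without and 112 ± 14.5 with ZA, Fcgr4 at 126 ± 2.53 and 118 ± 8.03, and Fcgr2b at 57.6 ± 1.07 and 57.3 ± 2.10 FPKM. Their common signalling chain Fcer1g was at 1360 ± 11.1 and 1347 ± 31.5 FPKM. In these 4 genes the groups overlapped.

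Among other genes used for the M1 state, 24 names were listed, of which Cxcl11 and Irg1 matched no row read here (Irg1 is an older name of Acod1, which is listed too). Of the 22 that matched, 15 were tested and 12 had a higher mean, with a median difference of 0.118. Unadjusted p-values under 0.05 by limma were found for 5 in the higher and 2 in the lower direction. Over all tested genes 56.9% had a higher mean, and 7.50% and 4.85% had such p-values in the higher and lower direction. The list was chosen with earlier results of these data known, so these counts may follow partly from that choice. Saa3, an acute-phase protein, was at 2.26, 2.49 and 3.65 FPKM in Ctrl and at 6.12, 10.5 and 15.9 FPKM in ZA, a difference of 1.57 ± 0.28 (SE) with an adjusted p of 0.0761 by limma and of 0.0277 by voom. The cytokine Il1a lay in the opposite direction, at 2.55, 2.73 and 2.36 against 1.93, 1.83 and 1.85 FPKM, with a difference of -0.31 and an adjusted p of 0.0699. Il1b lay below the filter, at 0.814, 0.764 and 0.647 FPKM in Ctrl and 0.925, 1.38 and 1.36 FPKM in ZA. Its summed fragments were 175 and 288, and every ZA library was above every Ctrl library, as in 11.4% of all tested genes. In the limma fit without a filter its adjusted p was 0.389. The scavenger receptor Marco differed by 0.51 (adjusted p 0.178). Of the genes used for the M2 state, which IL-4 induces, 12 of 18 were tested and 5 had a higher mean, with a median of -0.065 and 3 genes with an unadjusted p under 0.05, all of them lower. Il1rn, the antagonist of the IL-1 receptor, differed by -0.30 (adjusted p 0.203), Myc by -0.22 (0.301) and Pparg by -0.10 (0.284).

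NF-kB and IRF regulators had a higher mean in 19 of the 20 genes listed and tested, against 56.9% over all tested genes. Centring on the median left 17 and quantile normalization 16, and the median difference was 0.072, 0.060 and 0.064 under the 3 scalings. Unadjusted p-values under 0.05 were found for 9 in the higher and 1 in the lower direction. Nfkbie, an inhibitor of NF-kB that NF-kB itself induces, was at 8.32, 8.86 and 8.64 FPKM in Ctrl and at 10.3, 10.1 and 10.2 FPKM in ZA, with a difference of 0.22 ± 0.03 (SE) and an adjusted p of 0.0510 by limma and of 0.0385 by voom. Nfkbiz, a nuclear cofactor of NF-kB, differed by 0.23 (adjusted p 0.249), and Atf3, a repressor of inflammatory genes, by -0.11 (0.235).

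**Figure D5:**
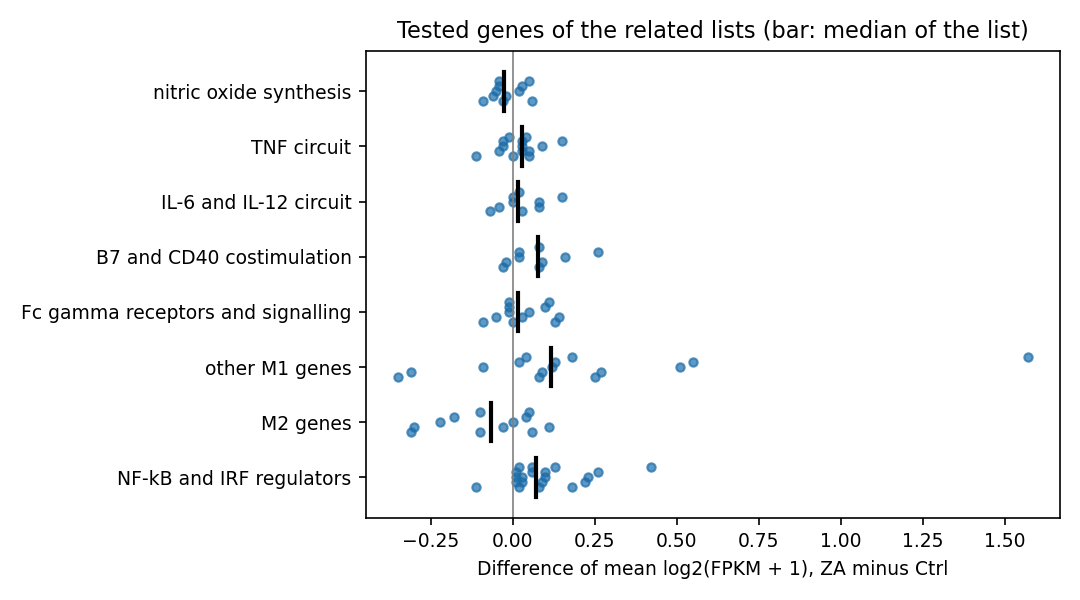
Difference of mean log2(FPKM + 1), ZA minus Ctrl, for each tested gene of the 8 lists, with a bar at the median of the list. The medians run from -0.065 (M2 genes) to 0.118 (other M1 genes), and Saa3 lies alone at 1.57.

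Library totals lay between 41230600 and 42155808 fragments, and tested genes had a median of 1395 fragments. The 7 macrophage markers (Adgre1, Cd68, Csf1r, Itgam, Lyz2, Mertk and Cd14) summed to 23511 to 27411 FPKM in Ctrl and to 24401 to 27880 FPKM in ZA. Most of each sum was Lyz2, at 20472 to 24406 FPKM in Ctrl and 21272 to 24669 FPKM in ZA. Of the 7 markers, 6 had a higher mean in ZA. For Adgre1, Cd68, Csf1r and Cd14 all ZA libraries were above Ctrl, as in 11.4% of all tested genes. By limma 0 of the 7 had an adjusted p under 0.05 and 3 an unadjusted one, all higher in ZA. By voom, Adgre1 (532 ± 5.93 and 581 ± 13.4 FPKM) and Csf1r (772 ± 4.93 and 835 ± 11.9 FPKM) were called. The 8 neutrophil and progenitor markers summed to 32.5 to 47.5 FPKM in Ctrl and to 29.4 to 34.4 FPKM in ZA, with Ly6g at 0 in every library. All 5 that were tested had a lower mean in ZA, 3 of them with an unadjusted p under 0.05 by limma. An adjusted p under 0.05 was reached by 0 of the 5 by limma or by voom. Over all tested genes 56.9% had a higher mean in ZA. Unadjusted p-values under 0.05 by limma were found for 7.50% in the higher and 4.85% in the lower direction. Stroma markers summed to 8.17 to 16.4 and 7.40 to 12.3 FPKM and erythroid markers to 0.380 to 2.61 and 0.764 to 1.82 FPKM. T cell, B cell, dendritic cell and mast cell markers each summed to less than 1 FPKM in every library, with the mast cell marker Mcpt4 at 0. The part of these markers in the members' values was not tested, and in bulk RNA fewer cells of a type and less RNA per cell cannot be told apart.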

How the data were processed

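Total RNA of 6 libraries (3 Ctrl, 3 ZA) was sequenced as 150 bp paired-end reads. The paper's methods name the VAHTS kit, and the labels also a SMARTER kit. The submitters' processing notes name build mm9. The aligner, counter and annotation are not given in the sources used here. The authors deposited FPKM values, without further scaling. Rows without separators were split where the digits allowed a single reading, and otherwise by the rule that FPKM is a whole number of fragments over length and library total. This restored 35393 of 35434 rows with 99.7% of fragments, and 41 were left out. Of the 5000 simulated rows 3 were cut wrongly.

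log2(FPKM + 1) was compared with limma 3.58.1 in R 4.3.3 (lmFit, eBayes with a trend, two-sided, Benjamini-Hochberg over 9800 genes averaging 1 FPKM or more). In simulated data with 200 of 9800 genes changed 2-fold, all 200 were called, along with 14 unchanged genes. Smaller differences, such as those of the members, were not simulated. Members and lists were chosen with earlier results of these data known. Genes named are the 8 members, their listed direct relatives, the 3 genes per list with the highest absolute moderated t, and each tested member's closest profile. Il1b was added beside Il1a. Some genes under this rule are left out of the text. Sequences, orientation and shared stretches were read with Python 3.11.15 from RefSeq and GENCODE tables of GRCm38, and Matplotlib 3.10.9 made the plots. Replicates within a group were not duplicates (chi-square per gene from 3.52 to 9.73). Alternatives were another pseudocount, filter, scaling, variance prior, the replicate number as a block, voom on recovered fragments, rows with a single cut, and leaving out each library.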

Additional observations from a re-analysis of the deposited data

How the results depend on the processing

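In each of the 16 alternatives 0 of the members tested had an adjusted p under 0.05, with all 8 tested in the fits without a filter, 4 with a minimum mean FPKM of 5, 3 in rows with a single cut and 5 in the rest. The adjusted p ranged from 0.263 to 0.621 for Tnf and from 0.148 to 0.759 for Cd40, with differences of 0.11 to 0.21 and 0.09 to 0.29. The number of genes called, 36, was 1 with no filter, 20 with quantile normalization, 1 with a prior without a trend, 132 with voom on fragments and 77 with voom and no filter. With the 3045 tested genes in rows with a single cut it was 0, where Cd40 and Fcgr3 were not among the genes used. Leaving out 1 library gave 0 to 25 genes: 1 without Ctrl 1, 1 without Ctrl 2, 6 without Ctrl 3, 25 without ZA 1, 0 without ZA 2 and 4 without ZA 3. The replicate number as a block gave 78 genes and 0 members, and in the lists it called Marco, Saa3, Fn1 and Irf7. Deviations of libraries with the same number correlated at 0.284, 0.0393 and 0.280 for numbers 1, 2 and 3. Since 1 of them was under 0.1, the numbers were not taken as pairs, although all 6 libraries correlated best with their own number, a hint from the data and not from the design, and a batch shared by number was not tested. The members with a higher mean were 5, or between 3 and 7 when 1 library was left out, with 3 without ZA 1. Leaving out 1 library turned the sign of differences near 0, which ranged from -0.04 to 0.06 for Cd80, from -0.11 to 0.01 for Cd86 and from -0.02 to 0.00 for Fcgr3. For the members below the filter the difference moved with the pseudocount and with voom without a filter, which also changes the scale and the weights: for Nos2 it was 0.02, 0.09 with a pseudocount of 0.1 and 0.14 with voom, for Il6 0.01, 0.09 and 0.53, and for Il12b -0.02, -0.13 and -0.29. Why the number of genes called moved was not tested. Depth limits Il6 and Il12b most, with at most 1 and 10 fragments in a library.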
